A study of Mus musculus with 3 samples.

Results

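The MAP kinase genes Mapk3, Mapk8, Mapk9 and Mapk14, the MAP2 kinase genes Map2k1, Map2k3 and Map2k4, and the MAP kinase-activated kinase genes Mapkapk2 and Mapkapk3 were examined in mouse macrophages. These 9 genes were chosen by symbol from 55536 annotated genes, 22028 of them protein-coding. The libraries were total RNA-seq after ribosomal RNA depletion, made from the cytosol of bone-marrow-derived macrophages of strain C57BL/6J, which are primary cells grown out of marrow precursors. Cells had received 100 ng/ml Lipid A, the part of endotoxin that activates Toll-like receptor 4, for 12 h, then 12 h without it, then 100 ng/ml again for 30 min. This is 1 group of 3 biological replicates, and the age and sex of the animals were not collected. All 3 replicates carry the same donor entry, so SDs and p-values describe the spread among these libraries alone, and that spread may be technical. Values are mRNA levels, and neither kinase protein nor its phosphorylation was measured.

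A MAP kinase cascade is a chain in which a MAP3 kinase phosphorylates a MAP2 kinase, which in turn phosphorylates a MAP kinase on a threonine and a tyrosine of its activation loop. Toll-like receptor 4 feeds the ERK, JNK and p38 branches, and their kinases act on transcription factors and on further kinases. In macrophages the p38 substrate MK2, the product of Mapkapk2, is known for stabilising inflammatory mRNAs such as that of tumour necrosis factor and for promoting their translation.

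The stretch of each MAP kinase that the MAP2 kinases phosphorylate is shown because it is the point where the steps of the cascade meet. Each line gives 33 coding bases from GENCODE M21, 5′ to 3′ on the coding strand, and capitals mark the codons of the threonine, the residue between and the tyrosine. The threonine codon is number 203 of Mapk3-202, 183 of Mapk8-203, 183 of Mapk9-201 and 180 of Mapk14-202, counted from 1 at the start codon. In mm10 they lie at chr7:126763446-126763478 (plus strand, exon 4), chr14:33392991-33393023 (minus strand, exon 5), chr11:49872818-49872850 (plus strand, exon 6) and chr17:28728387-28728419 (plus strand, exon 7).
Mapk3: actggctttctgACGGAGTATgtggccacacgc
Mapk8: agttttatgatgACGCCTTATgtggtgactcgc
Mapk9: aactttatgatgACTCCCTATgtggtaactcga
Mapk14: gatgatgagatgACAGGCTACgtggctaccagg
The middle codon was GAG in Mapk3, CCT in Mapk8, CCC in Mapk9 and GGC in Mapk14, which is glutamate in the ERK gene, proline in both JNK genes and glycine in the p38 gene.

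Mapk8, Mapk9 and Mapk14 each hold a pair of coding exons of equal length, of which a transcript takes the upstream or the downstream one, within the part that encodes the kinase domain. They are shown because the forms described further on are defined by them. Bases come from GENCODE M21, 5′ to 3′ on the coding strand, and capitals mark those that differ from the partner exon at the same position. The Mapk8 exons lie at chr14:33390673-33390744 and chr14:33390242-33390313 (minus strand), the Mapk9 exons at chr11:49873836-49873907 and chr11:49874264-49874335 (plus strand), and the Mapk14 exons at chr17:28737011-28737090 and chr17:28740680-28740759 (plus strand), all in mm10.
Mapk8 upstream exon: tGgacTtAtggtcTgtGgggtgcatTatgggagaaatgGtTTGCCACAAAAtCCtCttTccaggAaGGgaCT
Mapk8 downstream exon: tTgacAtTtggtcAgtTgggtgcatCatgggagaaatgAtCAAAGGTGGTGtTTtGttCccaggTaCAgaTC
Mapk9 upstream exon: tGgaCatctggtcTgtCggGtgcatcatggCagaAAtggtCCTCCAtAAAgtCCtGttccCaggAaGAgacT
Mapk9 downstream exon: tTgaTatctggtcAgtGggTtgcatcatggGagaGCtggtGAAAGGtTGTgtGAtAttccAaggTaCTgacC
Mapk14 upstream exon: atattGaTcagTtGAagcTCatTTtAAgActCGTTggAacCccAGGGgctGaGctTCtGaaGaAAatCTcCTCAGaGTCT
Mapk14 downstream exon: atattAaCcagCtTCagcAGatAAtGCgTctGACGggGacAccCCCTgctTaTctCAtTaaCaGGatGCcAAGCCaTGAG
The exons of a pair shared 45 of 72 bases in Mapk8, 47 of 72 in Mapk9 and 39 of 80 in Mapk14. The upstream exon of Mapk8 shared 59 of 72 bases with the upstream exon of Mapk9, more than with its own partner. The downstream exons of these JNK genes likewise shared 57 of 72 bases. Across positions, the Mapk8 downstream and Mapk9 upstream exons shared 52 of 72, also more than either shared with its own partner. The Mapk8 upstream and Mapk9 downstream exons shared 43 of 72.

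Annotated genes received 28759407, 54709008 and 49878183 expected counts, the reads a quantifier assigns to a gene, in replicates 1, 2 and 3. Gene levels come from a deposited table whose columns have the layout of RSEM, and a second deposited quantification has the layout of kallisto. The near-identical 7SL RNA genes held 58.0% to 64.8% of TPM, a measure of transcript abundance corrected for length and depth, so every other TPM value is low in absolute size. At least 1 TPM in every library, called detected here, was reached by 9068 of 22015 nuclear protein-coding genes, or 41.2%. All 10 macrophage markers looked at were detected, with summed levels of 4941 to 5198 TPM. Of 27 markers of other blood and stromal cells S100a8 and S100a9 were detected, and the 27 summed to 8.09 to 10.6 TPM. Ly6g, Retnlg and Hbb-bs were listed at 0.

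All 9 kinase genes were detected, and their mean levels ran from 2.53 TPM for Mapk8 to 64.0 TPM for Mapkapk2. In bulk RNA fewer cells with a transcript and less of it per cell cannot be told apart. None of the 9 shared exonic bases with another annotated gene, and their gene counts had a posterior SD of 0, so no reads were divided with other genes. Mean levels are given with SD over n = 3 libraries, and percentiles are ranks among the 9068 detected protein-coding genes.

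**Figure D1:**
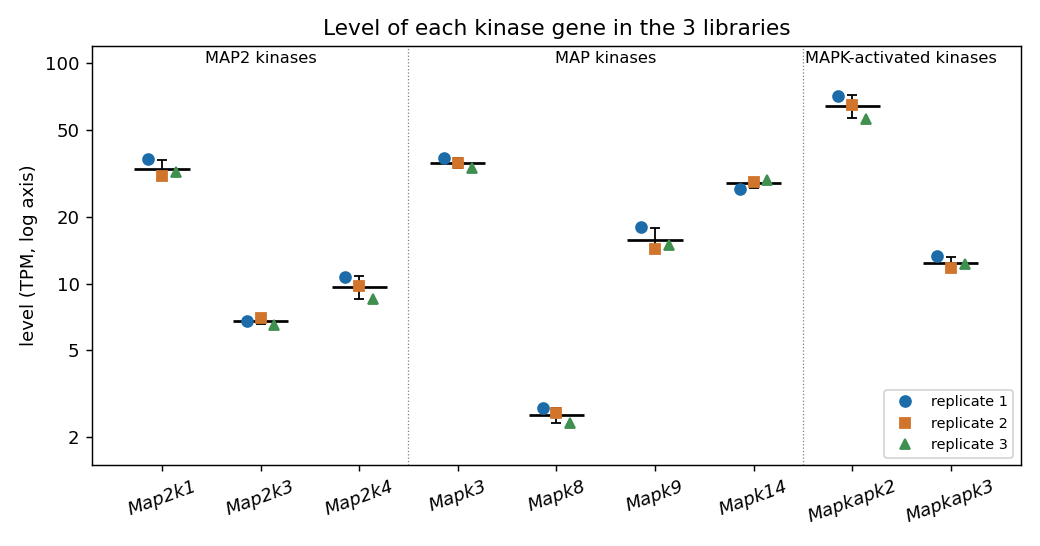
Level of each kinase gene in TPM on a log axis, with 1 symbol per library, the mean as a line and the SD over 3 libraries as a bar, ordered by step of the cascade. Mapkapk2 sits highest at 56.2 to 71.2 TPM and Mapk8 lowest at 2.32 to 2.71 TPM.

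Of these 3 MAP2 kinase genes, Map2k1 had the highest level. Map2k1 (ENSMUSG00000004936.8, chr9:64185770-64253631, minus strand) encodes MEK1, which activates the ERK kinases, and stood at 36.9, 30.9 and 32.0 TPM in replicates 1, 2 and 3, a mean of 33.3 ± 3.20 TPM. Map2k4 (ENSMUSG00000033352.11, chr11:65688243-65788297, minus strand) encodes MKK4, an activator of the JNKs that can also act on p38, and stood at 10.7, 9.78 and 8.47 TPM, a mean of 9.65 ± 1.13 TPM. Map2k3 (ENSMUSG00000018932.9, chr11:60932033-60952811, plus strand) encodes MKK3, which activates p38, and stood at 6.75, 6.94 and 6.51 TPM, a mean of 6.73 ± 0.215 TPM. The 3 genes did not overlap in any library. Map2k1 ranked at the 84.9th percentile, Map2k4 at the 54.7th and Map2k3 at the 43.3rd.

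Among the MAP kinases the ERK and p38 genes stood above both JNK genes. Mapk3 (ENSMUSG00000063065.13, chr7:126759601-126765819, plus strand) encodes ERK1 and stood at 37.1, 35.4 and 33.6 TPM, a mean of 35.4 ± 1.75 TPM. Mapk14 (ENSMUSG00000053436.15, chr17:28691329-28748406, plus strand) encodes p38 alpha and stood at 26.9, 29.0 and 29.5 TPM, a mean of 28.5 ± 1.43 TPM. These genes ranked at the 85.8th and 82.3rd percentiles. Mapk9 (ENSMUSG00000020366.18, chr11:49846751-49886421, plus strand) encodes JNK2 and stood at 18.1, 14.4 and 15.0 TPM, a mean of 15.8 ± 2.00 TPM, at the 69.0th percentile. Mapk8 (ENSMUSG00000021936.14, chr14:33377898-33447158, minus strand) encodes JNK1 and stood at 2.71, 2.57 and 2.32 TPM, a mean of 2.53 ± 0.198 TPM. Mapk8 was the lowest of the 9 genes in every library, ranked at the 14.3rd percentile, and rested on 353, 670 and 508 expected counts.

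Downstream of p38, Mapkapk2 stood well above Mapkapk3. Mapkapk2 (ENSMUSG00000016528.10, chr1:131053700-131097826, minus strand) encodes MK2 and stood at 71.2, 64.7 and 56.2 TPM, a mean of 64.0 ± 7.55 TPM at the 92.1st percentile. Mapkapk3 (ENSMUSG00000032577.16, chr9:107254927-107289877, minus strand) encodes the closely related MK3 and stood at 13.3, 11.8 and 12.2 TPM, a mean of 12.4 ± 0.788 TPM at the 62.2nd percentile. Mapkapk2 was the highest of the 9 genes in every library.

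Set in order of mean level, the genes ran Mapkapk2, Mapk3, Map2k1, Mapk14, Mapk9, Mapkapk3, Map2k4, Map2k3 and Mapk8. Neighbours were compared by the difference of log2(TPM + 1) within each library, and called different when the sign was the same in all 3 libraries and the mean exceeded 3 SD. By that rule 5 of 8 neighbouring pairs differed. Mapkapk2 stood above Mapk3 by 0.83 ± 0.10, Mapk14 above Mapk9 by 0.82 ± 0.23, and Mapk9 above Mapkapk3 by 0.32 ± 0.08. Map2k4 stood above Map2k3 by 0.46 ± 0.13 and Map2k3 above Mapk8 by 1.13 ± 0.06. The other 3 steps were within this limit, with the sign the same in 3 of 3 libraries. The order was set from these same levels, which favours a shared sign, so the sign adds no support. These 3 steps were 0.09 ± 0.09 for Mapk3 over Map2k1, 0.22 ± 0.20 for Map2k1 over Mapk14 and 0.34 ± 0.13 for Mapkapk3 over Map2k4. Mapk3, Map2k1 and Mapk14 thus lay at 28.5 to 35.4 TPM with no step called between neighbours, but without replicate 1 Map2k1 was called above Mapk14, by 0.10. Without replicate 2 the number of pairs called was 3, the steps from Mapk14 to Mapk9 and from Map2k4 to Map2k3 being lost. Without replicate 3 the step from Mapk14 to Mapk9 was also lost, while Mapkapk3 was called above Map2k4, by 0.27. With a replicate left out the SD rests on fewer values, so calls gained or lost there are not of the same strength. In the kallisto layout Mapkapk3 was also called above Map2k4, by 0.29.

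Along each branch the levels of successive kinases differed in ratio, in comparisons chosen after the values were seen. In the ERK branch Mapk3 stood at 1.07 ± 0.0719 times the TPM of Map2k1. In the p38 branch Mapk14 stood at 4.23 ± 0.283 times Map2k3, and Mapkapk2 in turn at 2.65, 2.23 and 1.90 times Mapk14, a mean of 2.26 ± 0.377. Mapkapk3 stood at 0.438 ± 0.0498 times Mapk14. In the JNK branch Mapk9 stood at 1.64 ± 0.155 times Map2k4. Mapk8, the other JNK gene among the 9, went the other way, at 2.32 to 2.71 TPM against 8.47 to 10.7 TPM for Map2k4.

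Genes were next compared with relatives of the same step. In 4 of 6 comparisons 1 gene held at least 83.7% of the summed TPM of the genes compared, and these differences were called under each alternative run. Mapk14 held 98.5% ± 0.287 of the p38 level, since Mapk11, Mapk12 and Mapk13, which encode the other p38 kinases, together reached 0.38, 0.53 and 0.37 TPM. The log2 difference was 4.37 ± 0.10, and ran from 3.43 in the kallisto layout to 5.92 with CPM, which is not divided by length. It was 5.77 with a pseudocount of 0.1 and 5.33 with TPM rescaled to nuclear protein-coding genes. Map2k3 held 88.1% ± 3.06 of the level it shared with Map2k6, which encodes the other MAP2 kinase dedicated to p38 and stood at 0.69, 1.25 and 0.82 TPM. Their log2 difference was 2.02 ± 0.19, and ran from 1.52 in the kallisto layout to 2.78 with a pseudocount of 0.1.

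Mapk9 held 86.1% ± 1.15 of the level it shared with Mapk8, with a log2 difference of 2.24 ± 0.13. The third JNK gene, Mapk10, which is expressed mainly in brain, was listed at 0 TPM. Mapkapk2 held 83.7% ± 1.33 of the level it shared with Mapkapk3, with a log2 difference of 2.27 ± 0.14. Mapkapk5, which encodes the related kinase MK5 and was looked at after the values were seen, stood at 16.1, 19.3 and 17.8 TPM, above Mapkapk3 in every library. Of the 3 Mapkapk genes together Mapkapk2 held 67.8% ± 2.82. Mapk14, Map2k3, Mapk9 and Mapkapk2 were each higher than the relatives in their comparison in 3 of 3 libraries.

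**Figure D2:**
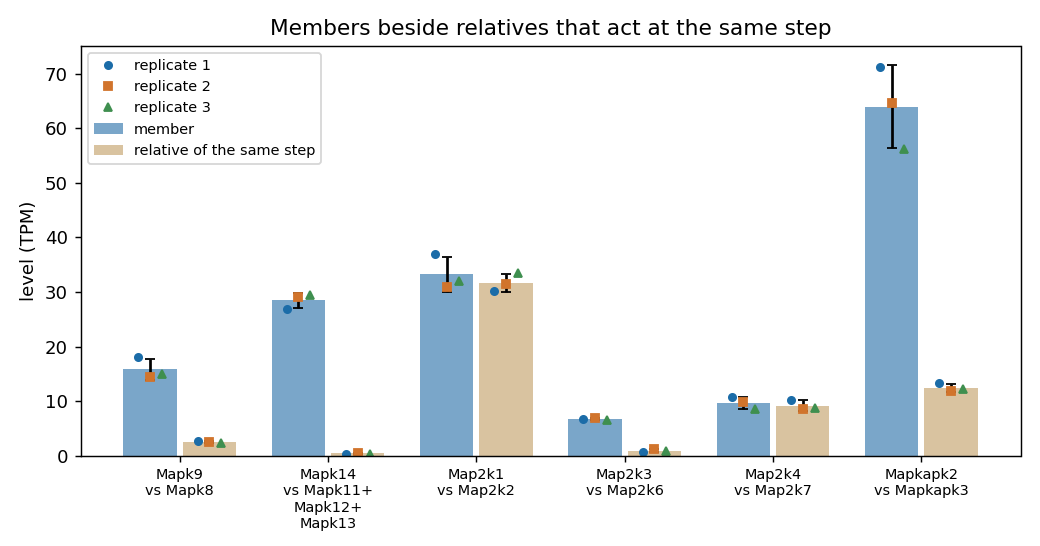
Level in TPM of each gene (blue bars) beside the relative or summed relatives of the same step (tan bars), as mean with SD over 3 libraries and 1 symbol per library. The bars of Mapk14, Mapk9, Map2k3 and Mapkapk2 stand clear of their relatives, while Map2k1 and Map2k2, and Map2k4 and Map2k7, overlap.

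Neither of the other MAP2 kinase pairs differed by the rule. Map2k2, which encodes MEK2, stood at 30.1, 31.4 and 33.5 TPM. Map2k1 held 51.2% ± 3.39 of the level of this pair and was higher in 1 of 3 libraries, with a log2 difference of 0.07 ± 0.19. Map2k7, which encodes the JNK activator MKK7, stood at 10.3, 8.50 and 8.72 TPM. Map2k4 held 51.3% ± 2.12 of that pair and was higher in 2 of 3 libraries, with a log2 difference of 0.07 ± 0.11. Neither was called under any alternative run, though the difference of Map2k1 and Map2k2 was 0.60 ± 0.21 with CPM, and that of Map2k4 and Map2k7 was 0.40 ± 0.14 in the kallisto layout and 0.41 ± 0.17 with CPM. In all, 4 of 6 differences were called. With 3 libraries an exact two-sided sign-flip test gives no p under 0.25, so its p decided none of them.

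The genes fell into those with a single main transcript and those with several. In the RSEM-layout table Map2k1-201 held 98.3% ± 1.26 of Map2k1, Map2k3-201 held 98.1% ± 0.852 of Map2k3, and Map2k4-201 held 92.4% ± 1.90 of Map2k4. Mapkapk2-201 held 99.9% of Mapkapk2 and Mapkapk3-201 held 94.96% of Mapkapk3. In the kallisto-layout table these 5 shares lay between 84.3% and 97.7%, and the same transcripts led. The division of reads between transcripts of a gene is modelled, so the 2 tables are given side by side below.

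Mapk3 had a main transcript whose share depended on the table. Mapk3-202, with 1140 coding bases, held 86.4%, 75.5% and 82.6% in replicates 1, 2 and 3 of the RSEM layout and a mean of 96.6% ± 3.32 in the kallisto layout. Mapk3-203 has 795 coding bases, beginning further downstream. It held 18.1% ± 5.53 in the RSEM layout and 2.16% ± 3.47 in the kallisto layout. Its counts in the RSEM layout had a posterior SD of 149, 241 and 184.

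The 3 genes with exclusive exons each had 3 transcripts at or above 10% in at least 1 table. For Mapk8 these were Mapk8-203 at 42.1% ± 4.95, Mapk8-205 at 27.5% ± 4.41 and Mapk8-201 at 21.5% ± 9.21 in the RSEM layout, and 43.7%, 19.2% and 25.1% in the kallisto layout. Mapk8 also had the highest share of transcripts not annotated as protein-coding among the 9 genes, 8.90% ± 0.785. For Mapk9 they were Mapk9-201 at 52.1% ± 3.75, Mapk9-204 at 28.1% ± 1.44 and Mapk9-202 at 4.37% ± 4.71 in the RSEM layout, against 38.2%, 40.9% and 10.6% in the kallisto layout. For Mapk14 they were Mapk14-203 at 43.0% ± 5.47, Mapk14-202 at 41.7% ± 3.61 and Mapk14-201 at 13.3% ± 1.52 in the RSEM layout, against 25.4%, 48.7% and 13.1% in the kallisto layout. The leading transcript of Mapk8 was the same in both tables, and that of Mapk9 differed between them in 3 of 3 libraries. For Mapk14 the RSEM layout gave no stable leader. Mapk14-203 held 46.7%, 45.6% and 36.7% there and Mapk14-202 held 40.4%, 38.9% and 45.8%, so Mapk14-202 led in replicate 3, and the order of the means turned without replicate 1, at 41.1% for Mapk14-203 and 42.3% for Mapk14-202, and without replicate 2, at 41.7% and 43.1%. In the kallisto layout Mapk14-202 led in 3 of 3 libraries.

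**Figure D3:**
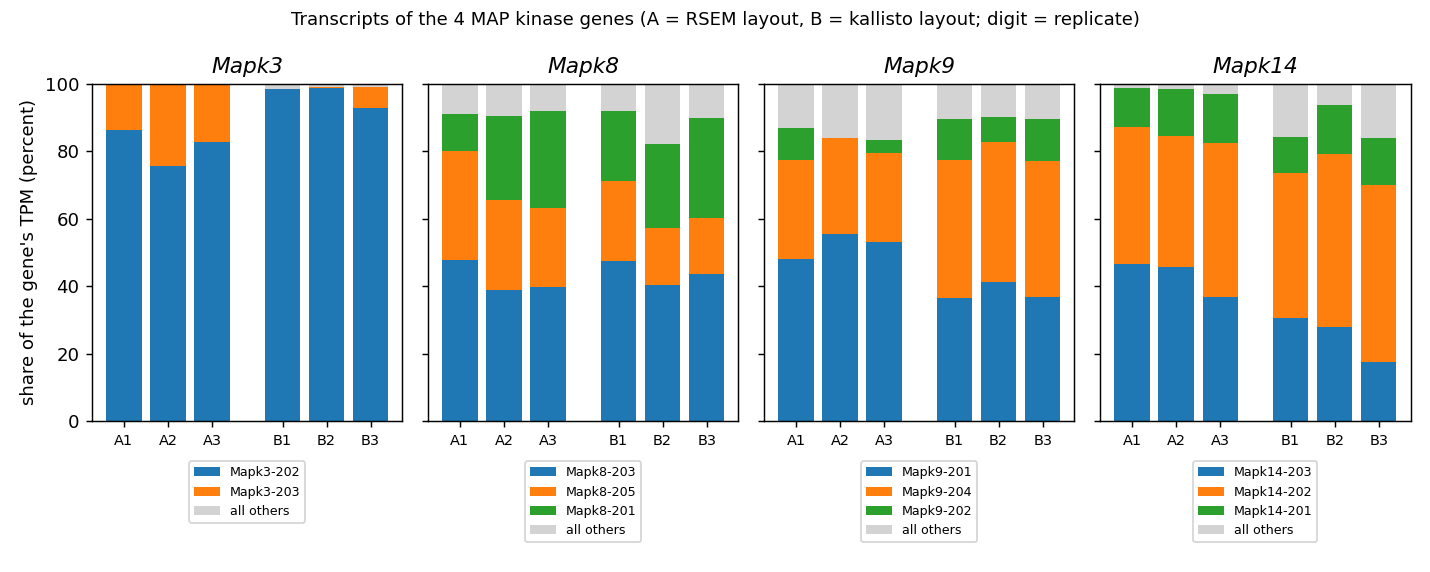
Share of each MAP kinase gene's TPM, in percent, held by its transcripts at or above 10%, stacked per library, with the RSEM layout (A) left of the kallisto layout (B) and all other transcripts in grey. Mapk3-202 fills most of every bar, while the blue and orange blocks of Mapk14 change size between the tables.

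By modelled transcript levels, the exclusive exons printed above had different shares in the JNK and p38 genes. Reads over the exons themselves were not counted. Shares are percent of the TPM of coding transcripts that hold either exon. The upstream exon of Mapk14 held 88.2%, 85.8% and 85.1% in replicates 1, 2 and 3, a mean of 86.4% ± 1.65, and 85.1% ± 1.94 in the kallisto layout. The upstream exon of Mapk8 held 35.4%, 29.6% and 25.6%, a mean of 30.2% ± 4.92, and 21.7% ± 3.85 in the kallisto layout. The upstream exon of Mapk9 held 9.87%, 5.51% and 8.11%, a mean of 7.83% ± 2.19, and 11.1% ± 2.92 in the kallisto layout. In the RSEM layout Mapk9-202 carried all of that share in replicate 1, 0 in replicate 2 and 0.56 of 1.16 TPM in replicate 3. Its counts there were 86, 0 and 51, with a posterior SD of 21, 13 and 31. The rest was assigned to a transcript that stood at 0 in the kallisto layout, so the Mapk9 share is uncertain. By TPM, Mapk14 transcripts therefore mostly held the upstream exon, and transcripts of both JNK genes mostly the downstream exon, in every library of either table. For Mapk8 the order turned with expected counts of the RSEM layout, which are not divided by length. Mapk8-205, with the upstream exon, took 230, 382 and 255 counts in replicates 1, 2 and 3. Mapk8-203 took 67, 109 and 85 and Mapk8-201 took 33, 150 and 133, together fewer in every library. The upstream share of Mapk8 was above that of Mapk9 in every library of either table.

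Protein ends also differed between forms. The final coding exon of Mapk8 has 14 bases in the short form and 143 in the long form, and that of Mapk9 has 14 and 140. The long end held 60.5%, 58.4% and 59.3% of Mapk9 coding TPM, a mean of 59.4% ± 1.04, and 51.3% ± 0.170 in the kallisto layout. In Mapk8 the long end held 12.2%, 27.5% and 31.2%, a mean of 23.6% ± 10.1, and 28.6% ± 5.55 in the kallisto layout. Replicate 1 was the lowest for Mapk8 in both tables, and the shares of Mapk9 stood above those of Mapk8 in every library. In Mapk14 the choice is at the start, where Mapk14-203 begins in a later exon and has 849 coding bases, against 1080 in Mapk14-202. The longer start held 52.7%, 53.7% and 62.2%, a mean of 56.2% ± 5.19, and 71.2% ± 7.39 in the kallisto layout.

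**Figure D4:**
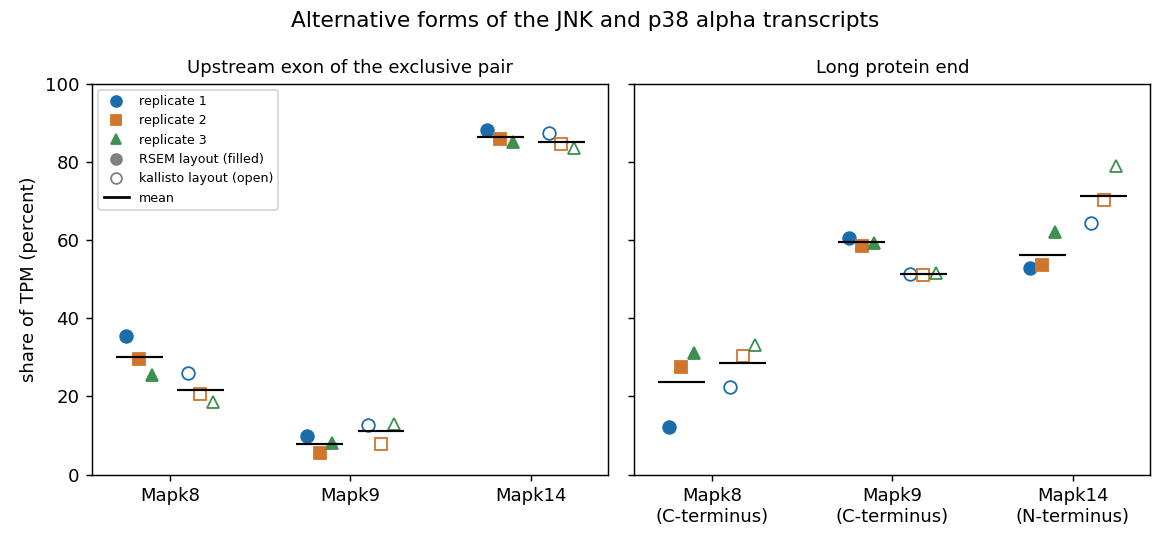
Share in percent of TPM held by the upstream exon of the exclusive pair (left) and by the long protein end (right), with 1 symbol per library, filled for the RSEM layout and open for the kallisto layout, and the mean as a line. Mapk14 sits at 83.5% to 88.2% for the upstream exon, far above Mapk8 and Mapk9.

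Replicates were compared gene by gene with a chi-square test on rounded expected counts, given TMM library sizes, over 13410 genes whose mean count was 10 or more. This test compares the libraries, not conditions. At a Benjamini-Hochberg adjusted p under 0.05 it called 8 of the 9 kinase genes unequal, where 64.8% of all genes tested were called. Among the 6946 genes whose mean counts lay in the same range as those of the kinases, 78.1% were called, so the count of 8 is near the background. Mapkapk3 was the gene not called, with an adjusted p of 0.346 in the chi-square test. Mapkapk2, with the most counts, had the smallest adjusted p, 2.54e-76 in the chi-square test.

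The differences behind these calls were modest. In log2 against the mean of the other libraries, Mapkapk2 stood at 0.19, 0.09 and -0.30 in replicates 1, 2 and 3, and Map2k4 at 0.14, 0.13 and -0.29. Map2k1 was highest in replicate 1, at 0.21, and Mapk14 was lowest there, at -0.16. For comparison, the range from the 5th to the 95th percentile of 12732 genes was -0.53 to 0.51 in replicate 1, -0.69 to 0.44 in replicate 2 and -0.57 to 0.63 in replicate 3. Replicate 3 was below the others for 8 of the 9 genes, all but Mapk14, with a median of -0.13, where 51.1% of all genes were below 0 with a median of -0.01. The coefficient of variation that edgeR estimated ran from 9.66% for Mapkapk3 to 13.4% for Mapk8, against a median of 11.3% for genes in the same count range. This estimate is drawn toward a trend over genes, 11.4% for Mapkapk3 and 14.8% for Mapk8, so it is not each gene's own spread alone. Without replicate 3 the chi-square test called 4 of the 9 genes, Map2k3, Map2k4, Mapk3 and Mapk8 being lost, where 42.5% of all genes were called. Without replicate 1 it called 5, Map2k1, Mapk9 and Mapk14 being lost, where 51.5% of all genes were called.

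**Figure D5:**
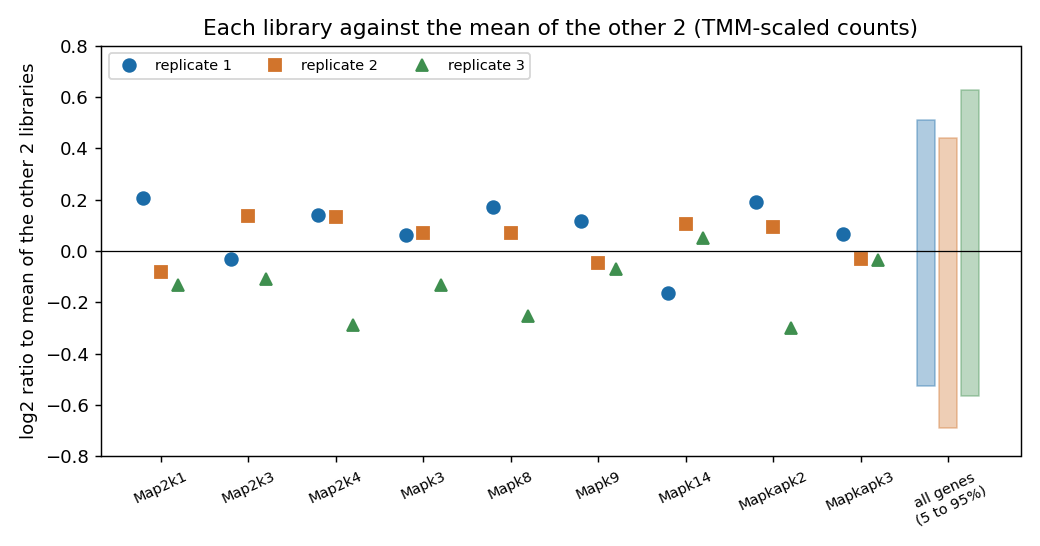
Log2 ratio of each library to the mean of the other libraries, from TMM-scaled counts, for the 9 kinase genes, with bars for the central 90% of all genes. Replicate 3 (triangles) lies below 0 for 8 genes, and every point lies inside the bar of its library.

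Of 48 other genes of the cascade 31 were detected and 17 were not, where 41.2% of nuclear protein-coding genes were detected. By step these were 4 of 10 MAP kinases, 3 of 4 MAP2 kinases, 15 of 18 MAP3 kinases, 6 of 9 downstream kinases and 3 of 7 scaffolds. Of the other MAP kinases, Mapk6, which encodes the atypical ERK3, stood at 30.9 ± 3.13 TPM and Nlk, the Nemo-like kinase, lowest among those detected at 4.67 ± 0.871 TPM. Of the other MAP2 kinases, Map2k2 averaged 31.7 ± 1.69 TPM, Map2k7 averaged 9.16 ± 0.965 TPM, and Map2k5, which activates ERK5, averaged 6.68 ± 0.205 TPM. The detected genes of both lists thus fell within the range of the 9 kinase genes.

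Upstream, the highest MAP3 kinase was Map3k1, which encodes the JNK pathway kinase MEKK1, at 22.2 ± 3.51 TPM. Map3k5, which encodes the stress kinase ASK1, was the lowest detected at 1.103 ± 0.0907 TPM. Downstream, Mknk2, a kinase of the translation factor eIF4E, stood at 30.8 ± 1.87 TPM and Rps6ka1, which encodes the ERK substrate RSK1, at 27.2 ± 2.26 TPM. Rps6ka4, which encodes the histone kinase MSK2, was the lowest detected at 7.03 ± 0.754 TPM. Mapkapk2 exceeded the highest gene of this downstream list in every library. Among scaffolds, Lamtor3, which binds MEK1 on late endosomes, stood at 30.5 ± 1.09 TPM, Spag9, which encodes the scaffold JIP4, at 11.6 ± 0.431 TPM, and Mapk8ip3, the lowest detected, at 5.60 ± 2.10 TPM.

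For 8 of the 9 genes, all but Mapk14, the gene with the most similar level is given, out of the 56 other genes of the cascade, by the root mean square difference of log2(TPM + 1) over the 3 libraries. For Map2k3 and Map2k4 it was a gene of the same step. Map2k3 was nearest to Map2k5 at 0.06, Map2k4 to Map2k7 at 0.11, and Mapk3 to Map2k1 at 0.12. Mapk8 was nearest to Map3k10 at 0.05, Mapk9 to Rps6ka3 at 0.11, Mapkapk3 to Spag9 at 0.10 and Map2k1 to Mapk6 at 0.12. Mapkapk2 had no close neighbour, the nearest being Mapk3 at 0.84. Nearness in level over 3 libraries is a description of these libraries.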

How the data were processed

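Total RNA-seq of 3 libraries in 1 group was analysed from the tables the authors deposited. Per the file headers, each library's gene table and first transcript table, as deposited, give per row an expected count, a TPM value and, as a score, the posterior SD of the count, in the columns RSEM writes. A second deposited transcript table holds estimated counts and TPM in the layout of kallisto. Per the text deposited with the libraries, the build was mm10 with GENCODE M21. With which tools and versions reads were quantified, and whether by strand, is not given in the sources used here. Rows naming no annotated gene took 0.167% to 0.774% of counts and were left out. The kinase genes and the gene lists were chosen with earlier results of these data known.

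Levels are TPM as deposited, and differences use log2(TPM + 1) within a library, which understates changes of low genes. For the chi-square test, rounded expected counts were given TMM library sizes by edgeR 4.0.16 (R 4.3.3). The test compares with counting noise and uses no dispersion. Dispersions, fitted by edgeR with an intercept alone, gave the coefficient of variation only. On simulated counts of 13410 genes with counting noise alone this test called 0% of genes, and with 50 genes changed per fold the share called was 44% for a 1.1-fold change, 84% for 1.2-fold and 100% for 1.5-fold. Replicate 1 was the shallowest, at 28759407 expected counts. Exon sequences came from GENCODE M21 transcripts placed with its annotation. Other steps used Python 3.11.15, pandas 2.3.3 and numpy 2.4.6. Genes named are the 9 kinases, the relatives compared with them, the 2 highest and the lowest detected gene per step of the other cascade genes, and the nearest gene in level, and transcripts named hold at least 10% in either table. Some genes that met these rules, and 1 planned comparison, are not reported here. Mapk10, Mapkapk5, the markers given by name, the ratios along branches and the protein ends were picked after values were seen. Alternatives were the kallisto-layout table, pseudocount 0.1, TPM rescaled to nuclear protein-coding genes, counts not divided by length, DESeq2 1.42.0 size factors, no count filter, detection at 0.1 or 5 TPM, coding transcripts against all transcripts, and leaving out each replicate.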

Additional observations from a re-analysis of the deposited data

How the results depend on the processing

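Among the comparisons with relatives, the difference of Map2k1 and Map2k2, not called, was -0.00015 in the kallisto-layout table and ranged from -0.043 to 0.13 when each replicate was left out. With CPM, which is not divided by length, it was 0.60. The number of neighbouring pairs that differed was 3 to 6 of 8 when each replicate was left out, where the SD rested on fewer values. In these runs the chi-square test called 5, 7 and 4 of the 9 kinase genes without replicates 1, 2 and 3. Of all genes tested 51.5%, 44.3% and 42.5% were called there. In the kallisto-layout table the leading transcripts of the RSEM layout held 93.2% for Map2k3, 84.3% for Map2k4, 96.6% for Mapk3, 38.2% for Mapk9, 25.4% for Mapk14, 92.2% for Mapkapk2 and 89.3% for Mapkapk3, and the upstream exons held 21.7% for Mapk8 and 11.1% for Mapk9. The cause of these shifts was not tested. The chi-square test called 8 genes with DESeq2 size factors, 8 with no count filter and 9 with kallisto-layout counts. Of all genes tested 65.6%, 40.4% and 69.7% were called in these settings. Other cascade genes detected numbered 38 at 0.1 TPM, 23 at 5 TPM and 28 in the kallisto-layout table, against 31. The share of all genes detected was not counted in these settings. Kallisto-layout TPM was lower in general, at a median of 0.448 times the RSEM layout, so the levels of all 9 genes moved there, and also when rescaled to nuclear protein-coding genes. Leaving out 1 of 3 replicates cannot move a mean by as much as the SD, so these runs do not test the levels. No paired comparison of conditions was possible because the libraries form 1 group, while genes were compared with each other within each library. Depth limits Mapk8 most, since its transcripts divide 353 to 670 counts.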
